A study of Mus musculus with 20 samples.

Results

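The 9 genes described here encode the core of the retromer coat (Vps35, Vps29, Vps26a and Vps26b), 3 subunits of the WASH complex (Washc1, Washc4 and Washc5), and 2 enzymes that work with the MAGEL2 protein, the ubiquitin ligase TRIM27 and the deubiquitinase USP7. They were chosen by name, all 9 were found among the 53801 genes of the count tables, and all 9 passed the filter on low counts that left 22181 genes for testing. RNA of the hypothalamus was sequenced after removal of ribosomal RNA in 20 libraries. The KO libraries come from MADIN mice, a double ko of Magel2 and Ndn made as a model of Prader-Willi syndrome, and the WT libraries from C57BL/6J mice. Mice were kept in 12-h light and 12-h dark with free food and water and were killed 18 h after light on (night) or 6 h after light on (day), which gave 5 libraries each of KO_night, WT_night, KO_day and WT_day. Magel2 and Ndn are missing together in every KO library, so an effect of either gene alone cannot be told apart. The genotype field of the KO libraries reads knokdown, where the design text reads ko. Age and sex are not given in the labels used here, nor whether each library is a separate mouse, so that a p-value measures the spread between these libraries.

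Retromer is a coat on endosomes that picks up membrane proteins and returns them to the Golgi or the cell surface instead of letting them go to the lysosome. VPS35 is its long scaffold, VPS29 binds 1 end of it, and VPS26 binds the other end and exists as the paralogs VPS26A and VPS26B. The WASH complex is recruited to endosomes by VPS35 and switches on the Arp2/3 complex, which builds the branched actin that retrieval needs. In cultured human cells MAGEL2 binds VPS35 and TRIM27, and the MAGEL2 and TRIM27 ligase with USP7 regulates the ubiquitination of WASH. In the hypothalamus MAGEL2 loss has been linked to altered secretory granule proteins of neurons, which depend on such recycling.

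Vps26b was the only member that passed in KO against WT at night, and that call was not stable. Its promoter and that of its paralog Vps26a, which did not pass, are shown. Each is given as the 250 bases before the start site that RefSeq gives in GRCm38.p6, on the strand of the gene. Vps26a is at chr10:62486806-62487055 and Vps26b at chr9:27030095-27030344, both on the minus strand. Capitals mark CACGTG, the E-box, a motif read by clock factors and by TFEB-family factors of lysosomal genes.
Vps26a: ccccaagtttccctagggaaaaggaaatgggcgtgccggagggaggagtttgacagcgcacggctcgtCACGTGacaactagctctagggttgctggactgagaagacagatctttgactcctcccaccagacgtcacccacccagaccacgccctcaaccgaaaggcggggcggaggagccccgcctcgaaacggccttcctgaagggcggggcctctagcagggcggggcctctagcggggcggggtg
Vps26b: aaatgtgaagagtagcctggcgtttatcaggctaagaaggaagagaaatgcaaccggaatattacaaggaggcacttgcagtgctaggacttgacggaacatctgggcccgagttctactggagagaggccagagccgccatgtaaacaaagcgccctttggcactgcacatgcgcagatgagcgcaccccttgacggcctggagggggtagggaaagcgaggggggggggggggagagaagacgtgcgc
Of the 9 members 7 had a promoter in the RefSeq table, all but Vps35 and Washc5, and 4 motifs were searched on both strands. CACGTG was found in Vps26a only, at -182 to -177 from the start site, as part of the longer TCACGTGA at -183 to -176. CACGTG is held by 6.04% and TCACGTGA by 0.803% of 27025 promoters of the same length. CCGGAAG (7.07% of promoters) and TGACGTCA (1.60%) were in none of the 7. A match is a description of these letters and not a binding site.

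Library totals ran from 32066289 to 48697647 counts. Magel2 lay at 0 to 0.182 CPM (counts relative to the library total after TMM scaling) in the 10 KO libraries, against 15.6 to 19.5 CPM in 9 WT libraries, and Ndn at 0.248 to 1.01 CPM in KO, against 239 to 346 CPM in the same 9 WT libraries. In the library labelled WT_day 3 both genes go against that label, Magel2 at 2.16 CPM and Ndn at 31.0 CPM. Time was taken from the title in 19 libraries, and the time field contradicts it in 6 of them (KO_night 1, 2 and 3, WT_night 1, and KO_day 1 and 2). For KO_day 5 it was taken from the time field, since the title names neither time, so its label could not be checked in this way. WT_day 4 and WT_day 5 carry the same number in their titles and may share a source. Their counts differed beyond sampling noise (chi-square per degree of freedom of 6.92, in a range of 5.58 to 11.9 over all pairs of WT_day libraries), so neither is a copy of the other. This cannot show whether they come from 1 mouse. Both were kept, and no member passed by day without either of them. KO_night 4 stood apart from the rest in mitochondrial rRNA, which made up 15% of its counts, against 18.4% to 22.6% in the 19 other libraries. All 10 hypothalamic marker genes were at a mean of at least 1 CPM, and no marker of any cell type was at 0 in every library. In such bulk tissue, fewer cells of a type and less RNA per cell cannot be told apart.

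All 9 members were well measured, with at least 459 counts in each library. Per kilobase of exon, Vps35 was highest at 15.8 ± 1.21 CPM per kb (mean ± SD over 20 libraries). Usp7 at 13.7 ± 0.375, Vps26b at 13.5 ± 0.806, Vps26a at 12.4 ± 0.568 and Washc4 at 11.9 ± 0.568 CPM per kb followed, and each lay within the summed SDs of its neighbour in that order. Vps29 came next at 10.3 ± 0.761 CPM per kb and Washc5 at 7.87 ± 0.376. Washc1 at 3.67 ± 0.246 and Trim27 at 3.52 ± 0.232 CPM per kb were lowest and within their SDs of each other. The order depends on the length used, since the deposited counts appear to be over whole gene spans: per kilobase of span Vps29 was highest at 5.98 ± 0.441 CPM per kb and Washc5 lowest at 0.792 ± 0.0379.

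The levels of all members but Vps29 and Vps35 varied less across libraries than the median gene with a mean of at least 10 CPM. Usp7, which removes ubiquitin from many substrates, had a coefficient of variation of 2.74% over the 20 libraries, and 29 of the 22181 tested genes had a lower one (34 with RLE scaling and 151 with library totals only). Vps26a varied by 4.60%, Washc4 by 4.77%, Washc5 by 4.79%, Vps26b by 5.97%, Trim27 by 6.61% and Washc1 by 6.71%. Vps29 at 7.36% and Vps35 at 7.71% were the most variable members. The median was 11% over all tested genes and 7.27% over the 10823 genes with a mean of at least 10 CPM.

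**Figure D1:**
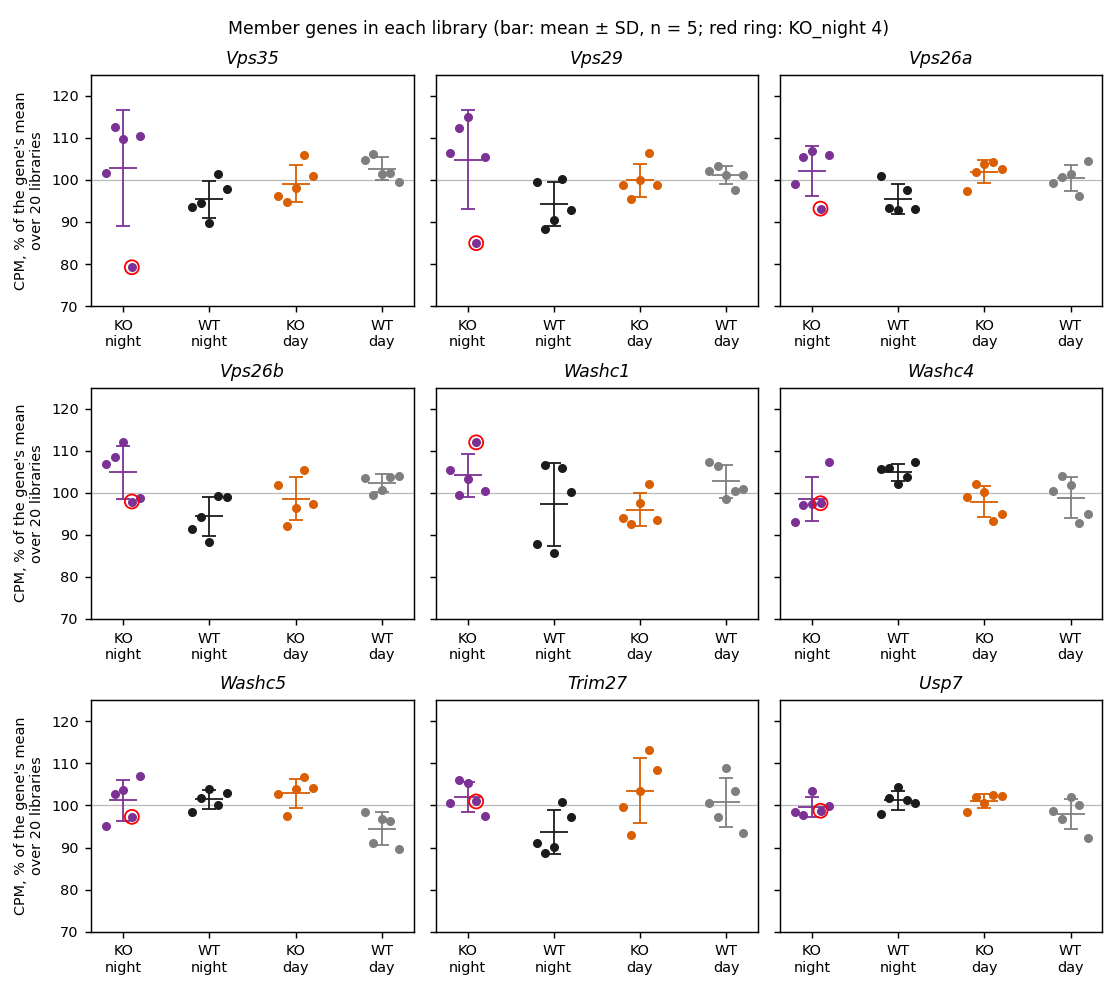
Level of each member in each library, as CPM in percent of the gene's mean over 20 libraries (vertical axis, not starting at 0), by group. Points are libraries, bars the mean ± SD (n = 5), and the red ring marks KO_night 4, where Vps35 is at 79.2% and Vps29 at 85.0% of their means.

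At night the 4 retromer core genes were higher in KO_night than in WT_night in value, and Vps26b was the 1 member of the 9 that passed the test. In all, 6 members were higher and 3 lower in value, with a median log2 change of 0.10, against 0.0051 over all tested genes, and 5 members had an unadjusted p under 0.05, as did 29.9% of all tested genes. Vps26b (ENSMUSG00000031988, chromosome 9, 27007771 to 27030065 in GRCm38), which encodes a VPS26 paralog, had 73.5, 74.7, 77.1, 67.4 and 68.0 CPM in KO_night 1 to 5, against 62.9, 64.8, 60.7, 68.2 and 68.0 CPM in WT_night 1 to 5. KO_night 1 to 3 lay above every WT_night library, and KO_night 4 and 5 lay within the WT_night range. Its log2 change was 0.15 ± 0.047 (SE, 1.11-fold, adjusted p = 0.0376 in edgeR's quasi-likelihood test with Benjamini-Hochberg adjustment over 22181 genes). Of all tested genes 11.9% passed in this comparison and 5.18% rose, so 1 riser among 9 members is near the background.

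The Vps26b call was not stable. KO_night 1, 2 and 3, the libraries that lie highest, are those whose time field says day. In the libraries with matching time labels alone (2 KO_night and 4 WT_night) the log2 change was 0.049 (adjusted p = 0.794), and with the time field in place of the title it was 0.037 (adjusted p = 0.937). Of all tested genes 6 passed in the first of these fits and 4 in the second, so a miss there says little about 1 gene. Vps26b passed in 17 of 34 alternative fits, with log2 changes from 0.037 to 0.17 and adjusted p from 0.0157 to 0.937, with adjusted p of 0.0621 to 0.136 when KO_night 1, 2 or 3 or WT_night 1, 2 or 3 was left out. It also missed the threshold when KO_day 5, WT_day 4, WT_day 5 or the library labelled WT_day 3 was left out, with adjusted p of 0.0518 to 0.0534.

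Vps29 (ENSMUSG00000029462, chromosome 5, 122354369 to 122364984), whose protein binds the end of the VPS35 scaffold, had 67.6, 71.3, 72.9, 54.0 and 66.9 CPM in KO_night 1 to 5, against 63.2, 56.1, 57.5, 63.6 and 58.9 CPM in WT_night 1 to 5. Its 4 KO_night libraries other than KO_night 4 lay above every WT_night library, and KO_night 4 lay below all of them. The log2 change was 0.15 ± 0.059 (adjusted p = 0.0864). Vps29 overlaps Fam216a on the opposite strand by 405 bases, and the strand setting of the counting is not given in the sources used here, so its level is uncertain to that extent.

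Vps35 (ENSMUSG00000031696, chromosome 8, 85260392 to 85299802), the scaffold, showed the same layout. It had 142.4, 158, 154, 111 and 155 CPM in KO_night 1 to 5, against 131, 133, 126, 142.1 and 137 CPM in WT_night 1 to 5. Again 4 KO_night libraries lay above every WT_night library and KO_night 4 below all of them, which made the SD 19.3 CPM in KO_night, against 6.14 CPM in WT_night. The log2 change was 0.11 ± 0.067 (adjusted p = 0.291). Vps35 overlaps Orc6 on the opposite strand by 171 bases.

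Vps26a (ENSMUSG00000020078, chromosome 10, 62455235 to 62486805), the other VPS26 paralog, had 35.0, 37.3, 37.8, 32.9 and 37.5 CPM in KO_night 1 to 5, against 35.6, 33.0, 32.9, 34.5 and 32.9 CPM in WT_night 1 to 5. The groups overlapped, with 3 KO_night libraries above every WT_night library, and the log2 change was 0.096 ± 0.043 (adjusted p = 0.133). The ratio of Vps26b to Vps26a CPM within a library averaged 2.0 ± 0.110 in KO_night and 1.92 ± 0.120 in WT_night (SD, n = 5 each), and 1.88 ± 0.117 in KO_day and 1.98 ± 0.0775 in WT_day. The balance of the paralogs thus differed between groups by about the spread within a group.

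Leaving out KO_night 4 brought all 4 retromer core genes past the threshold at night. Without it the log2 change was 0.18 ± 0.044 for Vps35 (adjusted p = 0.0112), 0.22 ± 0.044 for Vps29 (adjusted p = 0.00777), 0.12 ± 0.040 for Vps26a (adjusted p = 0.0343) and 0.17 ± 0.046 for Vps26b (adjusted p = 0.0157, edgeR). The background was larger too, since 19% of 22360 tested genes then passed and 8.62% rose. The other 5 members did not pass in that fit. Of the 4 KO_night libraries that remain, 3 have contradicting time labels. The fit with only the agreeing libraries brings KO_night 4 back, beside KO_night 5 alone. In it the log2 change was -0.015 for Vps35, 0.034 for Vps29 and 0.080 for Vps26a, with edgeR adjusted p of 0.638 or more. For Vps35 and Vps29, KO_night 5 lay above every WT_night library and KO_night 4 below them all. That fit thus cannot tell the part of the time labels from that of KO_night 4. At night genes of short span were also higher in KO relative to long ones, with a median log2 change of 0.079 in the shortest quintile of spans and -0.13 in the longest. With that trend removed, Vps26b stood at 0.13 (adjusted p = 0.0598), and with the trend removed and KO_night 4 left out the 4 core genes passed at 0.21 (Vps35), 0.16 (Vps29), 0.13 (Vps26a) and 0.15 (Vps26b). In that last fit 2763 of all tested genes passed at night. The part of mitochondrial rRNA content and of the time labels in the retromer values was not tested.

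**Figure D2:**
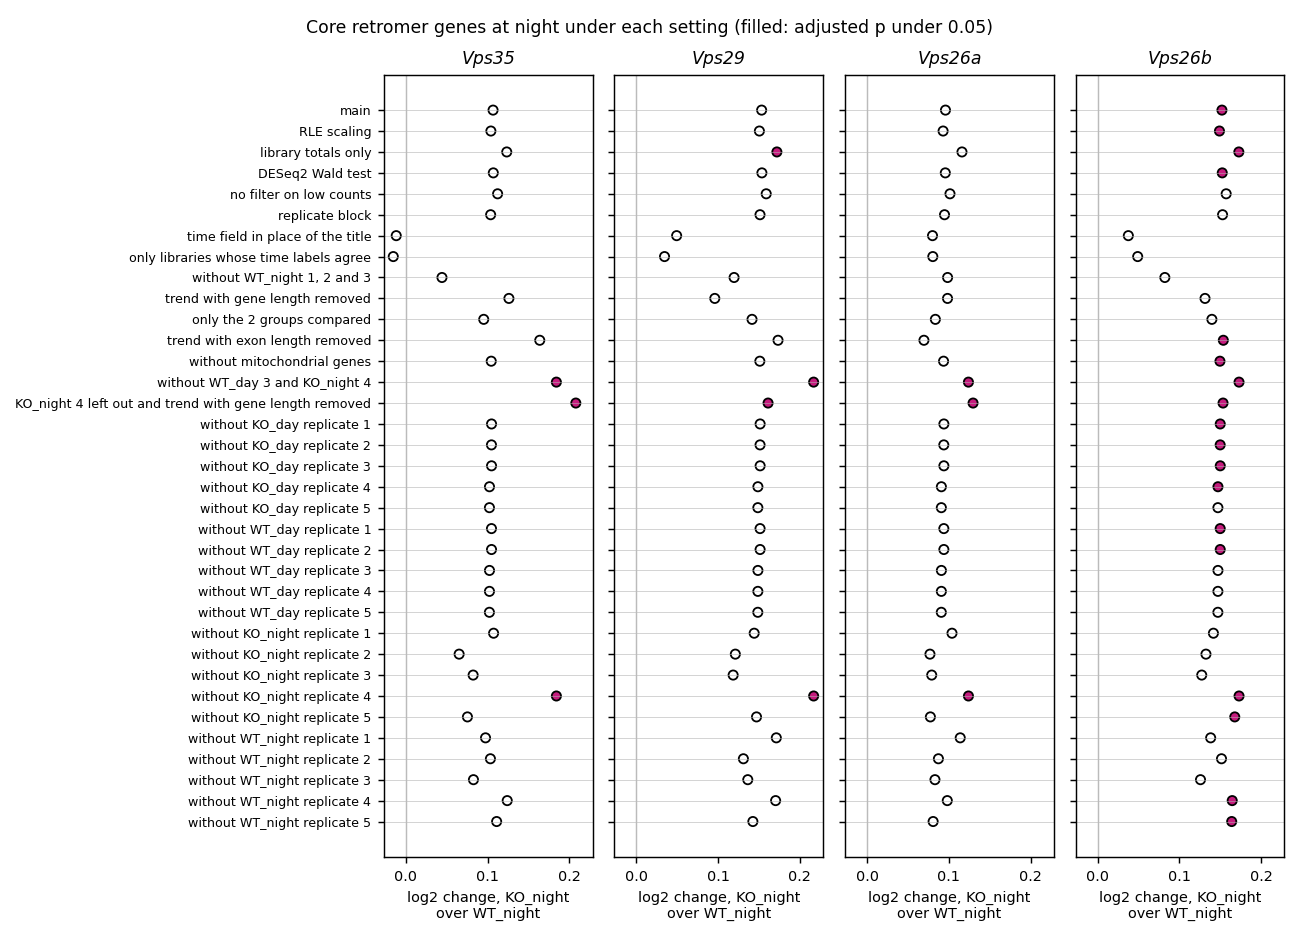
Log2 change of each core retromer gene, KO_night over WT_night (horizontal axis), under each setting (vertical axis), with filled points where the adjusted p is under 0.05. All 4 genes are filled in the settings that leave out KO_night 4, and no gene is filled with the time field, with agreeing time labels only or without WT_night 1, 2 and 3.

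No WASH subunit among the members passed at night. Washc4 (ENSMUSG00000034560, chromosome 10, 83543752 to 83596473), the large scaffold subunit also called SWIP, had 67.5, 70.4, 70.6, 70.7 and 77.8 CPM in KO_night 1 to 5, against 76.5, 76.8, 74.0, 75.2 and 77.7 CPM in WT_night 1 to 5. KO_night 1 to 4 lay below every WT_night library and KO_night 5 above them all, and the log2 change was -0.092 ± 0.043 (adjusted p = 0.156). It passed when KO_night 5 was left out (-0.13, adjusted p = 0.0495), and in no other of 34 alternative fits. Washc1 (ENSMUSG00000024101, chromosome 17, 66111545 to 66120503), the WASH protein that activates Arp2/3, averaged 14.9 ± 0.718 CPM in KO_night and 13.9 ± 1.42 CPM in WT_night, a log2 change of 0.10 ± 0.061 (adjusted p = 0.276). Washc5 (ENSMUSG00000022350, chromosome 15, 59331997 to 59374167), which encodes strumpellin, averaged 33.8 ± 1.61 CPM in KO_night and 33.9 ± 0.727 CPM in WT_night, with a 95% interval of the log2 change from -0.089 to 0.081.

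Neither ligase partner passed at night. Trim27 (ENSMUSG00000021326, chromosome 13, 21179445 to 21194724) averaged 19.7 ± 0.682 CPM in KO_night and 18.1 ± 1.01 CPM in WT_night, a log2 change of 0.13 ± 0.056 (adjusted p = 0.133). KO_night lay at 18.9 to 20.5 CPM and WT_night at 17.2 to 19.5 CPM, so the groups overlapped. The antisense gene Gm47806 overlaps 8112 bases of Trim27 and had 397 counts per library on average, against 739 for Trim27. The Trim27 level is uncertain to the extent that the counting ignored strand, and the strand setting was not tested. Gm48673, which overlaps Vps26b by 3369 bases on the same strand, had 0 counts. Usp8 and Usp50, which overlap by 50202 bases on opposite strands, had 2903 and 2893 counts on average. Usp7 (ENSMUSG00000022710, chromosome 16, 8689595 to 8792308) averaged 106 ± 2.48 CPM in KO_night and 108 ± 2.42 CPM in WT_night, and the 95% interval of its log2 change ran from -0.098 to 0.052. The ratio of Usp7 to Trim27 CPM was 5.37 ± 0.202 in KO_night and 5.96 ± 0.372 in WT_night, against 5.39 ± 0.394 in KO_day and 5.35 ± 0.125 in WT_day.

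By day no member passed, where 0.113% of all tested genes did. At an unadjusted p under 0.05 there was 1 member, Washc5, and 9.62% of all tested genes, so that 1 of 9 is near the background. DESeq2 called no member and 1.24% of the 15396 genes it tested. Washc5 had 34.3, 32.5, 34.7, 35.6 and 34.8 CPM in KO_day 1 to 5, against 32.9, 30.4, 32.3, 32.2 and 29.9 CPM in WT_day 1 to 5. The KO_day libraries other than KO_day 2 lay above every WT_day library, and the log2 change was 0.12 ± 0.041 (adjusted p = 0.271). When the library labelled WT_day 3 was left out it was 0.14 (adjusted p = 0.291). The retromer core showed no such layout by day: Vps35 averaged 139 ± 6.22 CPM in KO_day and 144 ± 3.78 CPM in WT_day, and Vps26b 67.9 ± 3.58 CPM in KO_day and 70.4 ± 1.45 CPM in WT_day. Vps29 averaged 63.5 ± 2.50 CPM in KO_day and 64.2 ± 1.37 CPM in WT_day, and Vps26a 36.1 ± 0.978 CPM in KO_day and 35.5 ± 1.07 CPM in WT_day. Their log2 changes ran from -0.053 (Vps26b) to 0.022 (Vps26a), with adjusted p of 0.792 or more in edgeR. Washc1 averaged 13.7 ± 0.560 CPM in KO_day and 14.7 ± 0.559 CPM in WT_day (-0.098 ± 0.060, adjusted p = 0.651), and 4 of 5 KO_day libraries lay below every WT_day library.

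Averaged over night and day no member passed, against 1.31% of all tested genes. Trim27 was the 1 member at an unadjusted p under 0.05 (log2 change 0.082 ± 0.039, adjusted p = 0.249), where 19.6% of all tested genes were. DESeq2 called no member and 6.32% of the 16807 genes it tested. Washc4 was the 1 member lower in value, at -0.053 ± 0.030 (adjusted p = 0.337). The 95% intervals of the 9 averaged log2 changes all lay between -0.12 and 0.16.

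**Figure D3:**
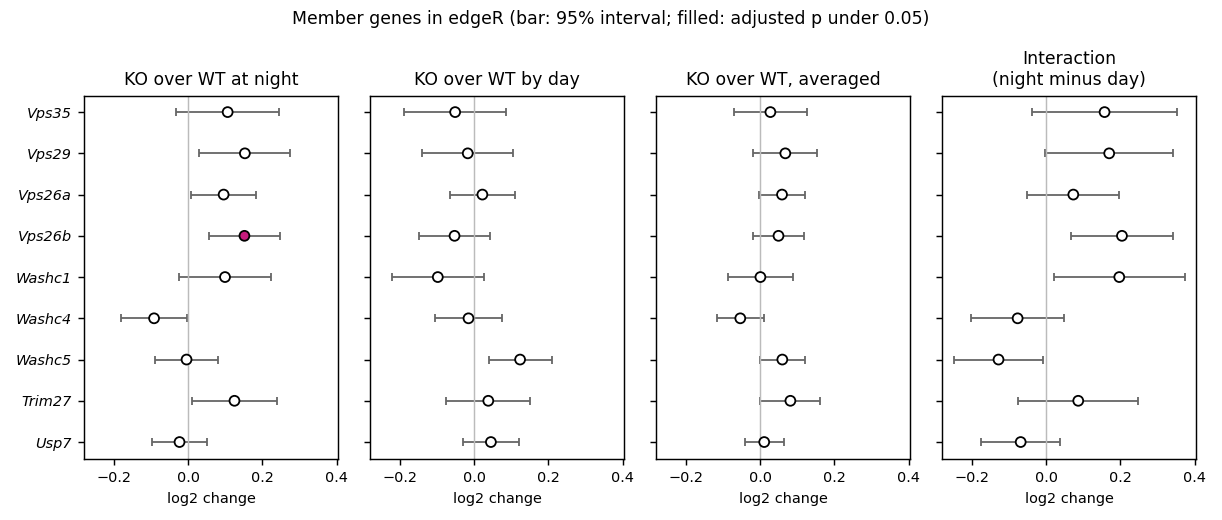
Log2 change of each member (horizontal axis) for KO over WT at night, by day and averaged, and for the interaction, with 95% intervals from the edgeR fit. Vps26b at night (0.15) is the single filled point, which marks an adjusted p under 0.05.

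The difference between the genotype effects at night and by day was tested as an interaction, in which 0% of all tested genes and no member passed in edgeR. At an unadjusted p under 0.05 there were 3 members, against 22.1% of all tested genes. DESeq2 called 1 member, Vps26b, and 8.03% of the 15396 genes it tested. The Vps26b interaction was 0.20 ± 0.066 (adjusted p = 0.0941 in edgeR, and 0.156 when the library labelled WT_day 3 was left out), the value at night being 0.15 and that by day -0.053. Washc1 stood at 0.20 ± 0.085 (adjusted p = 0.178) and Washc5 at -0.13 ± 0.058 (adjusted p = 0.198). Without KO_night 4, Vps35 (0.24 ± 0.061, adjusted p = 0.0341), Vps29 (0.23 ± 0.060, adjusted p = 0.0341) and Vps26b (0.23 ± 0.064, adjusted p = 0.0405) passed, where 6.76% of all tested genes did.

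Night was set against day within each genotype, and these contrasts share their libraries with those above. In KO no member passed (0.0721% of all tested genes did), and none had an unadjusted p under 0.05, where 17.7% of all tested genes did. DESeq2 called no member in KO and 4.02% of the 14689 genes it tested. In WT no member passed either (0.275% of all tested genes did), and DESeq2 called no member and 2.47% of the 16101 genes it tested. In WT 2 members, Vps26b and Washc5, had an unadjusted p under 0.05, as did 15.9% of all tested genes. Vps26b lay at 60.7 to 68.2 CPM in WT_night and at 68.4 to 71.6 CPM in WT_day, so the ranges nearly met. The share of all tested genes whose ranges lie apart in this way was not computed. The log2 change of Vps26b was -0.12 ± 0.047 (adjusted p = 0.240). Washc5 lay at 32.9 to 34.7 CPM in WT_night and at 29.9 to 32.9 CPM in WT_day, with 4 of 5 WT_night libraries above every WT_day library, at a log2 change of 0.10 ± 0.041 (adjusted p = 0.240). The 3 other core genes were lower in WT_night than in WT_day in value too, at -0.11 (Vps35), -0.10 (Vps29) and -0.072 (Vps26a), with adjusted p of 0.413 or more.

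The members' patterns over the 20 libraries were compared by the root mean square difference of log2 CPM after centring each gene, among 15742 protein-coding genes. The pair Vps35 and Vps29 differed by 0.054, and Vps29 ranked 79th of these genes in nearness to Vps35 and Vps35 60th in nearness to Vps29. Both are lowest of all libraries in KO_night 4, at 111 and 54.0 CPM. Usp7 and Washc5 differed by 0.051, with ranks of 100 (Washc5 for Usp7) and 31 (Usp7 for Washc5), and both vary little, which by itself brings patterns near. All libraries share scaling and gene length effects, so nearness is given as a description.

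**Figure D4:**
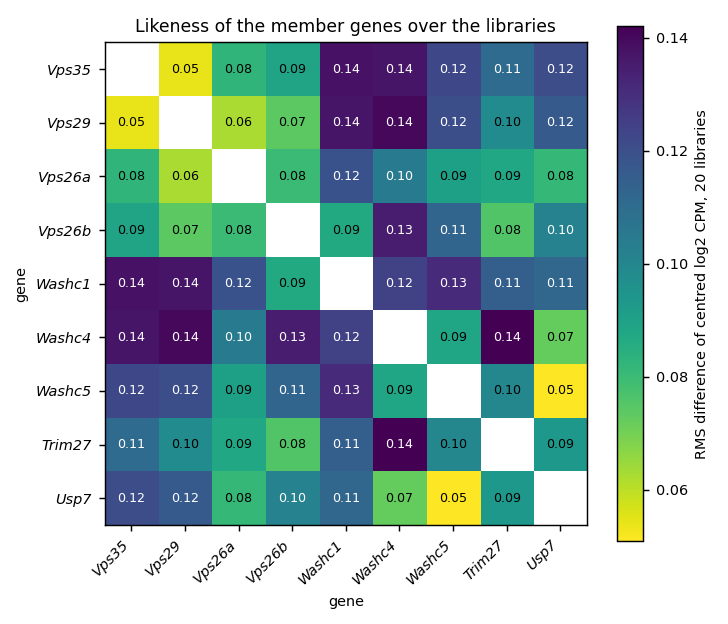
Root mean square difference of centred log2 CPM over 20 libraries for each pair of members (colour and printed value; smaller is more alike). Vps35 with Vps29 and Usp7 with Washc5 are the nearest pairs, both at 0.05.

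The genes nearest to each member were found by the same measure. They were Gpm6a, a neuronal membrane glycoprotein (0.031), and Matr3, a nuclear matrix protein (0.036), for Vps35, and Srp9 (0.040), of the signal recognition particle, and Atp6v1d (0.040), of the vacuolar proton pump, for Vps29. Vps26a was nearest to Agpat5 (0.038) and Vmp1 (0.042), and Vps26b to Eif4h (0.035) and Nsg2 (0.038), an endosomal protein of neurons. Washc1 was nearest to Fam207a (0.049) and Erp29 (0.063), Washc4 to Map2k4 (0.039) and Ankrd6 (0.040), and Washc5 to Synj1 (0.036) and Aebp2 (0.039). Trim27 was nearest to Nup50 (0.044) and Mrpl10 (0.054), and Usp7 to Wdr7 (0.035) and Sh3bp5 (0.036).

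Genes that act with the members were followed in 6 lists, and in the averaged effect and by day no gene of any list passed. At night none of the 5 other WASH complex subunits tested passed, and their median log2 change was 0.0056, against 0.0051 over all tested genes. The 2 lowest unadjusted p of that list in the averaged effect were those of Washc3, a small WASH subunit (-0.076 ± 0.045, adjusted p = 0.351), and Capzb, of the capping protein (-0.041 ± 0.030, adjusted p = 0.480). None of 13 sorting nexins and regulators of retromer passed at night either (median 0.031). In this list Tbc1d5, the RAB7 regulator bound by retromer, stood at -0.12 ± 0.054 (adjusted p = 0.239) and Ehd1, a membrane-remodelling ATPase, at 0.081 ± 0.041 (adjusted p = 0.275) in the averaged effect.

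Retriever and the CCC complex form a second endosomal recycling route, and 1 of its 13 tested genes rose at night and 1 fell (median 0.091), where 5.18% of all tested genes rose and 6.77% fell. Ccdc22 and Commd5 had at most 5 counts in a library and were not tested. Commd9, a CCC subunit, averaged 21.4 ± 1.47 CPM in KO_night and 18.7 ± 0.987 CPM in WT_night and rose by 0.19 ± 0.056 (adjusted p = 0.0306). Commd10, another CCC subunit, averaged 29.96 ± 1.49 CPM in KO_night and 35.9 ± 3.62 CPM in WT_night and fell by 0.26 on the log2 scale (SE 0.073, adjusted p = 0.0272). The list thus moved in both directions.

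The Arp2/3 complex, the actin nucleator that WASH activates, had 1 riser at night among 10 genes (median 0.092), against 5.18% of all tested genes. All 10 were higher in KO_night than in WT_night in value, where the log2 change over all tested genes had a median of 0.0051 and an upper quartile of 0.12. Of the 10, 2 lie in the second shortest quintile of spans, whose median log2 change over all genes was 0.077, 4 in the middle one (0.041), 3 in the next (-0.013) and 1 in the longest (-0.13). The riser was Arpc1b (0.17 ± 0.055, adjusted p = 0.0401), at 24.4 ± 0.979 CPM in KO_night and 21.7 ± 1.85 CPM in WT_night, and it overlaps Pdap1 on the opposite strand by 1937 bases. None of 8 retromer cargo genes passed at night (median 0.031). Sorl1, a sorting receptor, stood at 0.12 ± 0.030 in the averaged effect (adjusted p = 0.0501) and Sort1, which encodes sortilin, at 0.084 ± 0.032 (adjusted p = 0.151).

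Other ubiquitin enzymes that bind MAGE proteins had 2 risers among 5 genes at night (median 0.097), against 5.18% of all tested genes. Pja1, a ligase bound by MAGE-D1, averaged 198 ± 7.06 CPM in KO_night and 173 ± 13.8 CPM in WT_night and rose by 0.19 ± 0.052 (adjusted p = 0.0251). Trim28, the partner of several type I MAGE proteins, averaged 85.9 ± 1.90 CPM in KO_night and 76.9 ± 5.13 CPM in WT_night and rose by 0.16 ± 0.047 (adjusted p = 0.0319), and its locus overlaps Zbtb45 on the opposite strand. None of the 5 list genes that passed at night did so with agreeing time labels only. That fit holds 2 KO_night and 4 WT_night libraries, and 6 of all tested genes passed in it, so a miss there says little. In it Commd9 stood at 0.24 (adjusted p = 0.266), Commd10 at -0.20 (0.492), Arpc1b at 0.17 (0.450), Pja1 at 0.16 (0.464) and Trim28 at 0.10 (0.592). With the trend with gene length removed Trim28 passed (0.16, adjusted p = 0.0372), and Commd9 (0.15, 0.0779), Commd10 (-0.056, 0.483), Arpc1b (0.14, 0.0854) and Pja1 (0.12, 0.0612) did not. None of the 5 passed when KO_night 2, WT_night 1 or WT_night 3 was left out in turn, where 295, 286 and 122 of all tested genes did. Without KO_night 4 all 5 passed, as did 4253 of all tested genes. Of 34 alternative fits Commd9 passed in 22, Commd10 in 24, Arpc1b in 13, Pja1 in 25 and Trim28 in 24.

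**Figure D5:**
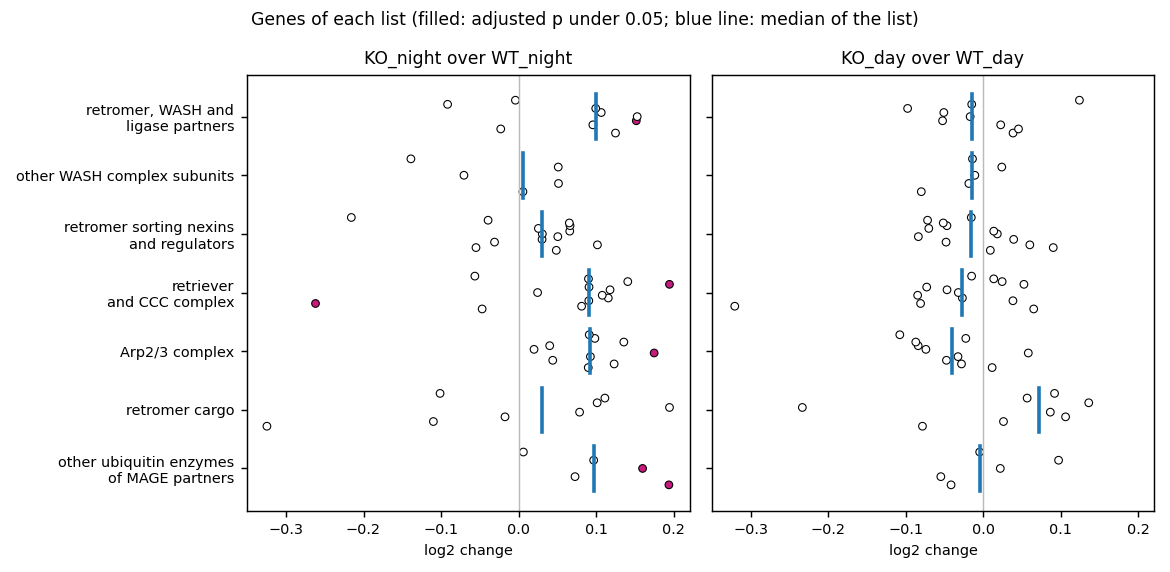
Log2 change of each tested gene of the members and of 6 related lists (horizontal axis), KO over WT at night (left) and by day (right), with filled points where the adjusted p is under 0.05 and a blue line at each list's median. At night 6 genes are filled, and by day none.

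Markers of cell types were set beside these night values, where 5.18% of all tested genes rose and 6.77% fell. The summed level of 10 hypothalamic markers was 955 to 1166 CPM in KO_night and 700 to 918 CPM in WT_night, and the groups did not overlap. The share of all tested genes whose KO_night and WT_night ranges lie apart was not computed. Of the 10 hypothalamic markers, the neuropeptide genes Oxt (0.76 ± 0.098, adjusted p = 0.000234) and Avp (0.45 ± 0.11, adjusted p = 0.0182) rose. No other of the 10 passed, and Sim1 (-0.13, adjusted p = 0.194) and Nr5a1 (-0.084, adjusted p = 0.487) were lower in value. Oxt averaged 297 CPM in KO_night and 176 CPM in WT_night, and Avp 260 and 190 CPM. Both weigh heavily in the sum, which averaged 1060 CPM in KO_night and 811 CPM in WT_night. The summed level of 6 oligodendrocyte markers was 2086 to 2805 CPM in KO_night and 1931 to 2390 CPM in WT_night, and 2 of the 6 rose, Mag and Cnp. For 6 astrocyte markers it was 760 to 891 CPM in KO_night and 715 to 878 CPM in WT_night, and 1 rose, Aldh1l1. For 6 neuronal markers it was 1595 to 1747 CPM in KO_night and 1650 to 1831 CPM in WT_night. Of these Slc32a1 rose (0.27 ± 0.068, adjusted p = 0.0226), while Rbfox3 stood at -0.36 (adjusted p = 0.0689) and Syt1 at -0.12 (adjusted p = 0.160). The sum of 6 microglial markers was 229 to 250.3 CPM in KO_night and 230 to 248 CPM in WT_night, and P2ry12 fell by 0.18 on the log2 scale (adjusted p = 0.0239). For 3 blood markers it was 262 to 367 CPM in KO_night and 248 to 493 CPM in WT_night, and Alas2, an enzyme of heme synthesis in red cells, fell by 0.45 on the log2 scale (adjusted p = 0.0141). No marker of endothelium, choroid plexus, pituitary, cortex and hippocampus or striatum passed at night. The part of such shifts in the members' values was not tested.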

How the data were processed

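The deposited files hold raw gene counts, 1 file per library, made by the authors with HISAT2 and featureCounts on mm10, per the submitters' processing notes (versions not given in the sources used here). The deposited table of WT_night 3 has no header and another separator, and holds raw counts of the same genes, for which its unit was recorded as other. Symbols, spans and exons come from GENCODE M21 (GRCm38), which matched 53706 of 53801 identifiers, and promoters from RefSeq (GRCm38.p6). The strand setting of the counting is not given in the sources used here, and the counts appear to cover whole gene spans.

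Counts were tested with edgeR 4.0.16 in R 4.3.3 by the quasi-likelihood F-test, with TMM scaling and a filterByExpr minimum of 10 counts, in 1 fit of 4 group means to 20 libraries, with Benjamini-Hochberg adjustment over 22181 genes and a threshold of 0.05. Levels are CPM from TMM-scaled totals, and likeness uses log2 CPM with a prior count of 2. DESeq2 1.42.0 was an alternative. The scripts were tested on simulated data. In 40 pairs of libraries within groups, chi-square per degree of freedom ran from 5.58 to 53.7, so none agreed within sampling noise.

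Named genes are the 9 members, Magel2, Ndn, the list genes that passed in KO against WT or else the 2 with the lowest averaged p, and the 2 genes nearest to each member. The members and lists were chosen with earlier results of these data known. Alternatives added after seeing the data are the exon length trend, leaving out mitochondrial genes, leaving out WT_day 3 with KO_night 4, and leaving out KO_night 4 with the gene length trend removed.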

Additional observations from a re-analysis of the deposited data

Results flagged for a closer look

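In the groups of 5 libraries checked for the 9 members, Magel2 and Ndn, 2 of 44 held a library that lay far from the others of its group (gap over range above 0.710). Chance gives about 1 in 20 such cases. Both are in the library labelled WT_day 3, where Magel2 was at 2.16 CPM and Ndn at 31.0 CPM. No member was found in this way, KO_night 4 included.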

How the results depend on the processing

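Member counts were recomputed in 14 alternatives, besides 20 fits that each left out 1 library. At night, against 1 member (Vps26b), there were 2 with library totals only (Vps29 added), 4 without WT_day 3 and KO_night 4, 4 with KO_night 4 left out and the gene length trend removed, and 0 each with no filter on low counts, a replicate block, the time field, agreeing time labels only, WT_night 1, 2 and 3 left out, the gene length trend removed, and only the 2 groups compared. The interaction gave 1 member with DESeq2 and 2 with KO_night 4 left out and the length trend removed, against 0. In the latter fit 709 of all tested genes passed. Leaving out 1 library gave 0 to 4 members at night, 0 to 3 in the interaction, and 0 to 0 in the other 4 comparisons. At night 4 passed without KO_night 4, 2 without KO_night 5 (Washc4 added), and 0 without KO_day 5, WT_day 3, 4 or 5, KO_night 1, 2 or 3, or WT_night 1, 2 or 3. Of all tested genes 2005 passed at night with library totals only and 3943 without WT_day 3 and KO_night 4. With KO_night 4 left out and the length trend removed 2763 passed. Genes passing at night numbered 2649 in the main fit, and 122 without WT_night 3 to 4355 without WT_night 4, 1689 with the block, 1189 with the length trend removed, 557 with only the 2 groups, 11 without WT_night 1, 2 and 3, 6 with agreeing labels and 4 with the time field. The cause was not tested. Each alternative was compared with the main fit, and no value that passed in either of them changed sign between them. Of 1818 member values under alternatives, 91 changed sign and passed in neither. Some genes that passed in 1 alternative had the other sign in another. Vps35 at night passed in 3 of 34 alternatives and ran from -0.015 to 0.21. The Vps26b interaction passed in 3 of 33 and ran from -0.021 to 0.24. Same-numbered libraries did not pair, since 3 of 30 such pairs correlated above 0.1 (-0.17 to 0.30) and 4 of 20 libraries correlated best with their own number. Each member had at least 459 counts in each library, and the effect of depth on the calls was not tested.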

Other observations

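Slc2a1, the glucose transporter of the blood-brain barrier and a retromer cargo, was higher in KO at night and lower in KO by day in value. It averaged 59.2 ± 3.75 CPM in KO_night and 51.8 ± 3.34 CPM in WT_night, and 54.0 ± 4.53 CPM in KO_day and 63.4 ± 6.92 CPM in WT_day (SD, n = 5 each). The log2 change was 0.19 ± 0.068 at night (edgeR adjusted p = 0.0605) and -0.23 ± 0.068 by day (adjusted p = 0.185), and the interaction was 0.43 ± 0.096 (adjusted p = 0.0576), so none passed. The gene was chosen after its values were seen.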
